A study of Rattus norvegicus with 20 samples.

Results

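The genes described here encode the 3 transforming growth factor-beta (TGF-beta) ligands (Tgfb1, Tgfb2, Tgfb3), their receptors (Tgfbr1, Tgfbr2, Tgfbr3), latent TGF-beta binding proteins (Ltbp1, Ltbp2), the secreted matrix protein Tgfbi and the inhibitory Smad protein Smad7. Every probe set to which the array annotation gives 1 of these 10 symbols alone was taken, which yielded 14 of the 31042 probe sets tested and covered 9 of the 10 genes. A probe set is a group of probes for 1 transcript. Tgfbr2, the receptor that binds ligand first and switches on Tgfbr1, had no such probe set and was not analysed here.

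The RNA came from the right ventricle of male Sprague Dawley rats of about 350 g. Chronic pulmonary embolism (PE, "PE2.0" in the titles) was modelled by placing 25-micron polystyrene microspheres, 2000000 per 100 g of body weight in 0.01% Tween-20, in the right jugular vein. Vehicle rats received 0.01% Tween-20 without spheres. At 6 weeks the ventricle was divided into apex and outflow tract, and 20 arrays were run, 5 for each region and treatment. The model is an obstruction by inert spheres rather than clot, and both treatments share the injection, the Tween-20 and a brief perfusion of the excised heart.

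TGF-beta ligands are secreted bound to their own propeptide and, through it, to a latent TGF-beta binding protein that anchors them to fibrillin in the matrix. Integrins and proteases release the active ligand, which joins the type II and type I receptors so that Smad2 and Smad3 are phosphorylated and enter the nucleus with Smad4. In the heart the pathway is known for turning fibroblasts into matrix-producing myofibroblasts, and Smad7 is made in response to it and blocks the type I receptor.

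The arrays had median signals of 123.02 to 159.4 (scaled signal units). The 3'/5' signal ratio of the GAPDH control probe sets, a sign of short RNA or short labelled copies, was 1.38 to 1.83 on the 15 arrays of the other groups, but 6.12, 2.20 and 2.34 on PE outflow arrays 2, 4 and 5. PE outflow array 2 also had the lowest mean correlation with its own group, 0.929. Each test below that uses the PE outflow group was therefore run with and without these 3 arrays. The cardiomyocyte genes Myh6, Tnnt2 and Tnni3 had mean signals of 28563 to 56649 in all 4 groups, in keeping with ventricular muscle. Apex and outflow arrays of the same number within a treatment were alike beyond their groups and were read as coming from the same rat.

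In the outflow tract of PE rats, 8 of the 9 measured genes were higher than in vehicle rats by their brightest probe set, and none was lower. Over all 14217 genes 26.3% were higher and 18% lower. Dimmer probe sets of Tgfbr1 and Smad7 were not called. The rises of the members ran from 1.36-fold for Tgfb1 to 23.0-fold for Ltbp2, with Tgfb3 at 4.86-fold, Ltbp1 at 3.55-fold and Tgfb2 at 3.37-fold. In the apex no member passed the test, where 0.0129% of all probe sets did. Yet 4 of the 14 probe sets had all 5 PE arrays above all 5 vehicle arrays, against 1.56% of all probe sets. Between the regions of vehicle rats no member was called. Fold changes here are of signal plus 16, errors of log2 fold changes are standard errors (SE), errors of signals are standard deviations (SD, n = 5 arrays), and "called" means an adjusted p below 0.05 with limma over all 31042 probe sets.

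Counted by probe set, 9 of 14 rose in the outflow tract and 0 fell, where 34.5% of all probe sets were called, 19.6% as higher and 14.9% as lower. The median log2 fold change was 0.68 over the 14 probe sets and 0.05 over all. Taking 1 probe set per gene, 8 of 9 members were higher and 0 lower, against 26.3% and 18% of 14217 genes. In 6 of the 14 the PE and vehicle arrays did not overlap, all with PE higher, against 13.4% of all probe sets with PE higher and 9.98% with PE lower. Without PE outflow arrays 2, 4 and 5, which leaves 2 PE outflow arrays, all 9 probe sets were still called higher. Calls over all probe sets in either direction then fell from 10720 to 7307.

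The tissue was bulk ventricle, so fewer cells of a type and less RNA per cell cannot be told apart in any of these values. Among marker genes in the same outflow comparison, 5 of 6 fibroblast markers rose, as did 5 of 6 smooth muscle, 6 of 6 macrophage, 4 of 5 adipocyte, 4 of 6 cartilage and 3 of 3 Schwann cell markers, while 6 of 7 cardiomyocyte markers and the smooth muscle marker Smtn (-1.01 ± 0.17) fell. The shares over all 14217 genes were 26.3% higher and 18% lower. The fibroblast marker Dcn went from an outflow mean of 25963 in vehicle to 26880 in PE rats. On vehicle outflow arrays 5 of the 6 cartilage and 3 of the 5 adipocyte markers were dim, with mean signals under 50. Of 5 endothelial markers Vwf and Tek rose, Kdr fell and the other 2 were not called. Their summed signal went from 9213 to 11891 on vehicle to 15316 to 18077 on PE outflow arrays, mostly through Vwf. The outflow means went from 2145 to 7720 for Vwf, 2428 to 3986 for Tek and 1344 to 1576 for Pecam1. Those of Kdr went from 3183 to 2150 and those of Tie1 from 1387 to 1275. Without PE outflow arrays 2, 4 and 5 the counts were 5 fibroblast, 5 smooth muscle, 6 macrophage, 4 adipocyte, 5 cartilage, 3 Schwann cell, 2 endothelial and 1 platelet and blood marker higher, and 7 cardiomyocyte markers, 1 smooth muscle and 1 endothelial marker lower. Over all 31042 probe sets, calls in either direction then numbered 7307, against 10720 on all arrays. The summed fibroblast signal went from 44684 to 66584 on vehicle outflow arrays to 101868 to 116948 on PE outflow arrays. The summed cardiomyocyte signal went from 279074 to 338840 to 132648 to 349435, with the highest value on PE outflow array 2. The summed smooth muscle signal went from 5695 to 8500 to 17217 to 40233, and the macrophage sum from 4250 to 4824 to 5583 to 14441. Of 6 platelet and blood markers Pf4 alone was called, from a mean of 901 to 2300, and the haemoglobin gene Hbb went from 643 to 1502 without a call. The summed signal of that list was 1253 to 3159 on vehicle and 1909 to 8436 on PE outflow arrays, while its members Gp9 and Ppbp had means of 16.5 to 47.6 in the 4 groups. The part of these shifts in the TGF-beta results was not tested.

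**Figure D1:**
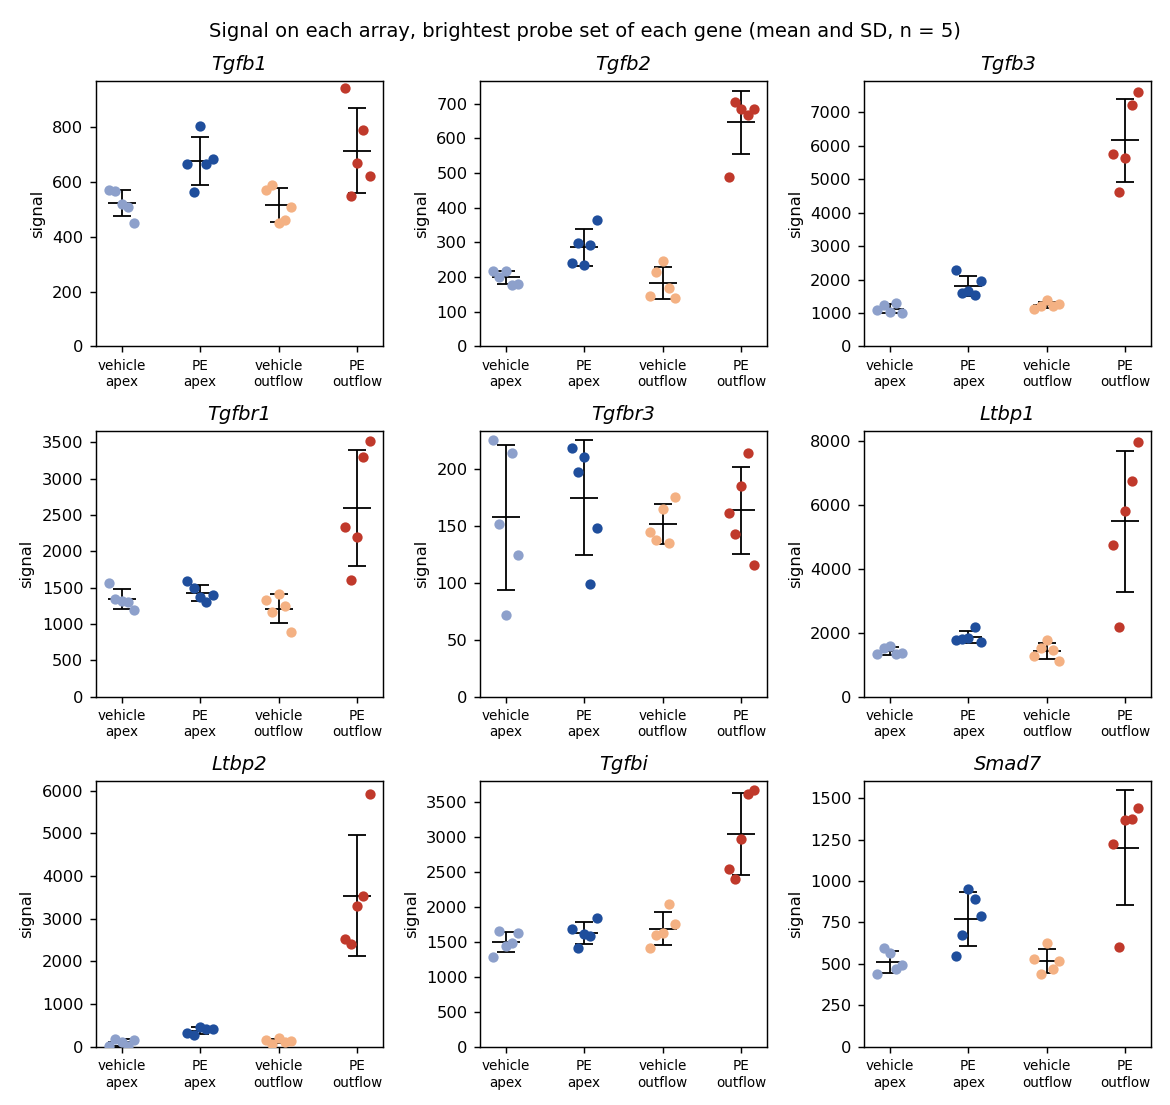
Signal of the brightest probe set of each of the 9 measured genes on every array, in linear scaled units; points are arrays, horizontal lines are means and bars are SD over 5 arrays. PE outflow arrays stand above vehicle outflow arrays for Tgfb2, Tgfb3, Tgfbr1, Ltbp1, Ltbp2 and Tgfbi without overlap, and the 4 groups of Tgfbr3 overlap.

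The promoters of the 3 genes with the largest rises in the outflow tract, Ltbp2, Tgfb3 and Ltbp1, are shown because these genes rose together and Smad proteins are known to bind a short DNA motif. The 250 bases before each start were read from RefSeq (build GRCr8), all on the minus strand, with every CAGAC (the Smad box letters) or its reverse complement GTCTG in capitals. They lie at chr6:110257299-110257548 for Ltbp2, chr6:111456947-111457196 for Tgfb3 and chr6:26177302-26177551 for Ltbp1, and each is written 5' to 3' along the gene.
Ltbp2: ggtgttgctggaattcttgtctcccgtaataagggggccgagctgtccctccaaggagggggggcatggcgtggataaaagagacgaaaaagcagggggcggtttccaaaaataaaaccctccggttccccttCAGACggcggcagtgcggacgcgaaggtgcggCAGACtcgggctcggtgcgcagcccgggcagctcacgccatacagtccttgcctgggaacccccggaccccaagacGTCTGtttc
Tgfb3: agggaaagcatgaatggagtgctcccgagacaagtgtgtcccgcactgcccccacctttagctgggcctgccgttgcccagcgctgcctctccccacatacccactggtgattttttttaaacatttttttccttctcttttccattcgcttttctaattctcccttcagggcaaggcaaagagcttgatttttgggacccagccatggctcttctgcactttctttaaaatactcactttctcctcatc
Ltbp1: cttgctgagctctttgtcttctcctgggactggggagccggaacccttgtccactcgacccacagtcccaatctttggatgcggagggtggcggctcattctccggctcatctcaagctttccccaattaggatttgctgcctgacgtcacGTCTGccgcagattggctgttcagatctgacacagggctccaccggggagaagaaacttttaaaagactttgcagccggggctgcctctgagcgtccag

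Ltbp2 held 3 such matches, whose first bases lay 117, 85 and 9 bases before the start, Ltbp1 held 1 at 99 bases, and Tgfb3 held 0. Searched on both strands, these letters stood in 2 of the 10 members' promoters, Ltbp1 and Ltbp2, against 42.9% of 33469 rat promoters of the same length. The GC box letters GGGCGG stood in 6 of 10 against 30.5%, and the TATA box letters TATAAA in 0 of 10 against 12.9%. These are matches of letters and show neither binding nor its absence.

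Tgfb3 was the ligand with the largest change. Its signal was 1116, 1217, 1386, 1196 and 1264 on the 5 vehicle outflow arrays and 5736, 4605, 5623, 7212 and 7599 on the PE outflow arrays. The lowest PE array was thus above the highest vehicle array by more than the whole vehicle range. The log2 fold change was 2.28 ± 0.14 (4.86-fold, adjusted p = 8.89e-09, limma), and 2.19 without PE outflow arrays 2, 4 and 5.

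In the apex Tgfb3 gave 1086, 1249, 1018, 1301 and 993 on vehicle arrays and 2277, 1595, 1663, 1548 and 1964 on PE arrays. These groups did not overlap either, yet the difference of 0.67 ± 0.14 log2 units (1.59-fold) was not called over all probe sets (adjusted p = 0.157, limma). It was called with an intensity trend and robust variances (0.67, adjusted p = 0.046) and with array weights (0.67, adjusted p = 0.0471). The outflow effect exceeded the apex effect by 1.62 ± 0.20 (adjusted p = 0.000131, limma).

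Tgfb2, a ligand with a known role in the development of the outflow tract, is represented by 2 probe sets that disagreed in size. With the brighter one, 1387172_a_at, vehicle outflow arrays gave 146, 214, 248, 167 and 139, and PE outflow arrays 487, 704, 685, 667 and 685. The groups were far apart, and PE array 1 stood below the other 4. The rise was 1.75 ± 0.16 on the log2 scale (3.37-fold, adjusted p = 1.83e-07, limma), and 1.61 without PE outflow arrays 2, 4 and 5.

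The other Tgfb2 probe set, 1388011_a_at, gave 125, 143, 170, 74.1 and 141 on vehicle outflow arrays and 210, 163, 239, 190 and 157 on PE arrays. Here 3 of 5 PE arrays stood above every vehicle array. The rise was 0.53 ± 0.18 (1.44-fold, adjusted p = 0.027, limma), a call lost when each array was centred on its median (0.39, adjusted p = 0.104) or quantile normalized (0.38, adjusted p = 0.115). It was also lost when only the compared groups were fitted (adjusted p = 0.0783), or without vehicle outflow array 4 (0.36) or PE outflow array 1 (0.49) or 3 (0.45).

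In the apex the brighter Tgfb2 probe set gave 178 to 218 on vehicle arrays and 235 to 364 on PE arrays, without overlap. The difference was 0.47 ± 0.16 (1.39-fold) and was not called (adjusted p = 0.45, limma). The outflow effect was larger by 1.28 ± 0.22 with this probe set (adjusted p = 0.00102), but by 0.16 ± 0.25 with the other, which was not called (adjusted p = 0.73, limma).

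Tgfb1, the ligand most often studied in fibrosis, changed least of the 3. Its outflow signal was 569, 587, 449, 462 and 508 in vehicle rats and 942, 547, 670, 787 and 620 in PE rats. PE array 2 lay within the vehicle range, and the other 4 lay above it. The rise was 0.44 ± 0.14 (1.36-fold, adjusted p = 0.019, limma), or 0.62 without PE outflow arrays 2, 4 and 5.

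The Tgfb1 call was sensitive to scaling: centring each array on its median gave 0.31 (adjusted p = 0.119) and quantile normalization 0.33 (adjusted p = 0.0819). It was likewise lost when only the compared groups were fitted (adjusted p = 0.0762), and without vehicle outflow array 3 (0.39) or PE outflow array 1 (0.34) or 4 (0.40). The apex values were 451 to 568 in vehicle and 562 to 803 in PE rats, 0.36 ± 0.14 (adjusted p = 0.562, limma). The outflow and apex effects of Tgfb1 differed by 0.08 ± 0.20, with a 95% interval of -0.33 to 0.50, which holds both no difference and one as large as the effects.

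Ltbp2, a relative of the latent TGF-beta binding proteins that binds fibrillin but is not known to hold the ligand, had the largest fold change of the members. Vehicle outflow arrays gave 157, 72.3, 208, 114 and 135, and PE outflow arrays 2517, 2418, 3307, 3533 and 5923. The lowest PE array was more than 10 times the highest vehicle array. The rise was 4.52 ± 0.41 (23.0-fold, adjusted p = 1.72e-07, limma), and 4.31 (19.8-fold) without PE outflow arrays 2, 4 and 5. Its size also moved with the value added before log2, to 4.68 with 1 added and 4.12 with 64 added, both called.

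In the apex Ltbp2 gave 25.7, 177, 112, 23.3 and 166 in vehicle and 323, 263, 452, 427 and 408 in PE rats. All PE values were above all vehicle values, and the vehicle values were dim and scattered. The difference of 2.03 ± 0.41 (4.08-fold) was not called (adjusted p = 0.119, limma), and since the vehicle signals are low its size depended on the value added before log2: 2.32 with 1 added and 1.53 with 64 added. Only the last of these was called (adjusted p = 0.0413). The outflow effect was larger by 2.50 ± 0.57 (adjusted p = 0.00557, limma).

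Ltbp1, which binds the latent ligand and ties it to the matrix, gave 1262, 1525, 1781, 1449 and 1108 on vehicle outflow arrays and 4751, 2172, 5803, 6756 and 7969 on PE outflow arrays. The groups did not overlap, but PE array 2 lay close above the vehicle range and far below the other 4. The rise was 1.83 ± 0.24 (3.55-fold, adjusted p = 8.93e-06, limma), and 1.89 without PE outflow arrays 2, 4 and 5. Apex signals were 1326 to 1592 in vehicle and 1702 to 2189 in PE rats, again without overlap, and the difference of 0.37 ± 0.24 was not called (adjusted p = 0.786, limma). The outflow effect was larger by 1.45 ± 0.34 (adjusted p = 0.00644, limma).

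The type I receptor Tgfbr1, the kinase that phosphorylates Smad2 and Smad3, gave 1327, 1170, 1412, 1253 and 888 on vehicle outflow arrays and 2342, 1611, 2196, 3302 and 3524 on PE outflow arrays with probe set 1376636_at. The groups did not overlap, and PE arrays 4 and 5 were highest. The rise was 1.05 ± 0.18 (2.07-fold, adjusted p = 0.000109, limma), and 0.91 without PE outflow arrays 2, 4 and 5. Apex signals were 1187 to 1571 in vehicle and 1303 to 1589 in PE rats, a difference of 0.09 ± 0.18 (adjusted p = 0.949, limma), and the outflow effect was larger by 0.96 ± 0.25 (adjusted p = 0.0122, limma).

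A second Tgfbr1 probe set, 1369504_at, did not show this rise. It was dim, with group means of 47.0 to 61.5, and its outflow difference was -0.40 ± 0.42 with a 95% interval of -1.27 to 0.48, below the value of the brighter probe set.

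The co-receptor Tgfbr3 (betaglycan), which presents Tgfb2 to the signalling receptors, was the measured gene with no call in any of the 5 comparisons. With probe set 1387484_at the group means were 152 to 175, and the outflow difference was 0.08 ± 0.25 (adjusted p = 0.85, limma) with a 95% interval of -0.44 to 0.60. Its sign turned with quantile normalization and with median centring. The other probe set, 1369219_at, gave 0.71 ± 0.37 in the apex and -0.26 ± 0.37 in the outflow tract, neither called.

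Tgfbi, a secreted matrix protein named for its induction by TGF-beta, gave 1405, 1604, 1630, 2045 and 1758 on vehicle outflow arrays and 2544, 2405, 2967, 3609 and 3676 on PE outflow arrays. The groups did not overlap. The rise was 0.83 ± 0.14 (1.78-fold, adjusted p = 8.43e-05, limma), and 0.71 without PE outflow arrays 2, 4 and 5. The apex difference was 0.12 ± 0.14 (adjusted p = 0.898, limma). The outflow effect was larger by 0.72 ± 0.19 (adjusted p = 0.0148, limma), a call lost without PE outflow arrays 2, 4 and 5 (0.59, adjusted p = 0.0536) and with median centring (0.60, adjusted p = 0.0689).

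Smad7 gave 532, 437, 628, 472 and 516 on vehicle outflow arrays and 1224, 602, 1367, 1374 and 1443 on PE outflow arrays with probe set 1368896_at. PE array 2 lay within the vehicle range, and the other 4 lay far above it. The rise was 1.14 ± 0.21 (2.20-fold, adjusted p = 0.000216, limma), and 1.31 without PE outflow arrays 2, 4 and 5. Apex signals were 437 to 596 in vehicle and 546 to 951 in PE rats, and 4 of 5 PE arrays stood above all vehicle arrays (0.55 ± 0.21, adjusted p = 0.52, limma).

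The Smad7 effects in the outflow tract and apex differed by 0.58 ± 0.29, which was not called (adjusted p = 0.187, limma). The 95% interval was -0.03 to 1.19. Without PE outflow array 2 alone the difference was 0.81 and was called (adjusted p = 0.00826, limma), and without arrays 2, 4 and 5 it was 0.75 and was not (adjusted p = 0.0595, limma). The other Smad7 probe sets, 1368897_at and 1368898_at, were dim, with group means of 72.9 to 98.4 and of at most 83.8, and showed outflow differences of 0.24 ± 0.26 and 0.29 ± 0.33 that were not called.

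**Figure D2:**
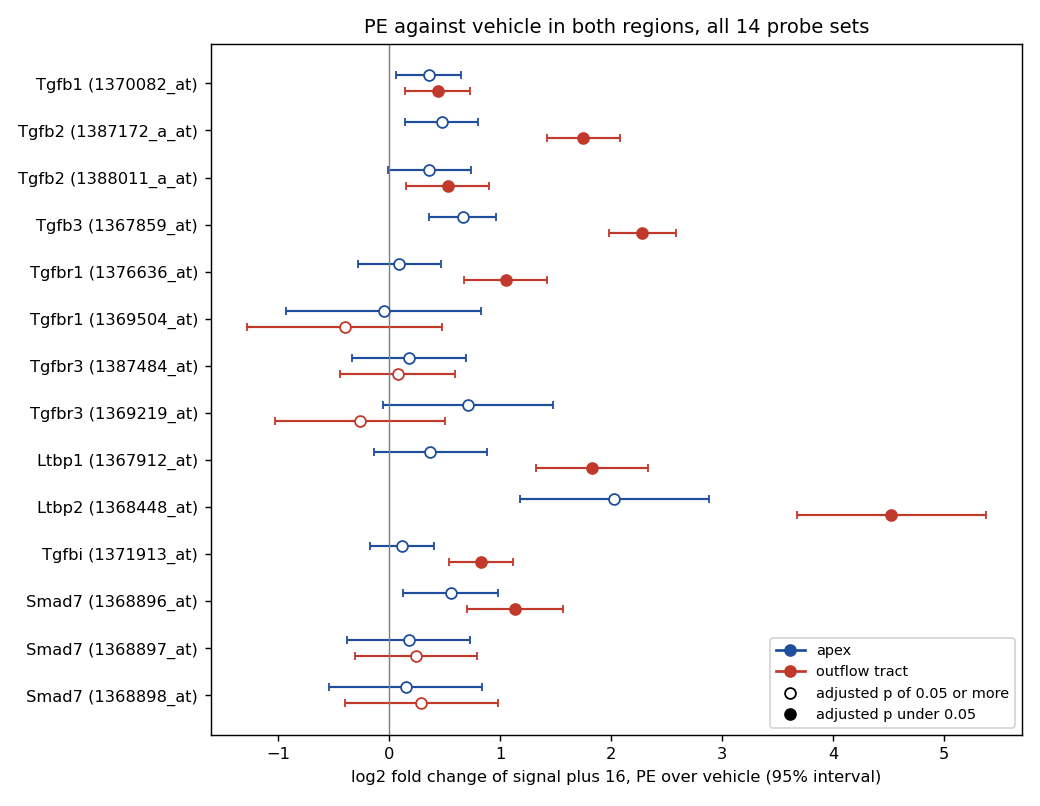
Log2 fold change of signal plus 16, PE over vehicle, for all 14 probe sets; points are limma estimates, bars 95% intervals, blue the apex and red the outflow tract, and filled points have an adjusted p under 0.05. All 9 filled points are outflow values to the right of 0, and the weaker probe sets of Tgfb2, Tgfbr1 and Smad7 lie nearer 0 than the brighter ones.

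Probe sets of 1 gene therefore disagreed in 3 genes. For Tgfb2 both rose, by 1.75 and 0.53. For Tgfbr1 and Smad7 the bright probe set rose and the dim ones were not called. Both Tgfbr3 probe sets were uncalled and had opposite signs in the outflow tract. The remaining 5 genes had a single probe set each.

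The apex comparison asked whether PE changed the same genes away from the outflow tract. There limma called 0 of the 14 probe sets, against 0.0129% of all probe sets. At an unadjusted p under 0.05 there were 5 of 14, against 7.47% of all probe sets. The 4 probe sets without overlap (Tgfb2 1387172_a_at, Tgfb3, Ltbp1 and Ltbp2) all had PE higher, against 1.56% of all probe sets with PE higher and 1.5% with PE lower. The median log2 fold change was 0.36 over the 14 probe sets and 0.00 over all.

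The difference between the PE effects in the 2 regions was called for 6 of the 14 probe sets, all with the larger rise in the outflow tract, against 17.9% of all probe sets in either direction, 9.84% in this one and 8.09% in the other. The 6 were Tgfb2 1387172_a_at, Tgfb3, Tgfbr1 1376636_at, Ltbp1, Ltbp2 and Tgfbi. Without PE outflow arrays 2, 4 and 5 the call was lost for Tgfbi alone, while calls over all probe sets fell from 5567 to 3646.

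Outflow tract and apex of vehicle rats were compared to see whether the regions differed without embolism. Log2 differences ran from -0.21 (Tgfb2 1388011_a_at) to 0.64 (Ltbp2), and limma called 0 of 14, with 0 of 14 at an unadjusted p under 0.05. Over all probe sets it called 0 as well, with 1152 at an unadjusted p under 0.05.

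In PE rats the same regional comparison called 7 of 14 probe sets, all higher in the outflow tract, against 28.7% of all probe sets in either direction, 16% as higher and 12.7% as lower. In 5 of the 14 all outflow arrays stood above all apex arrays, against 11.5% of all probe sets, while 8.64% had them all below. The comparison shares the PE outflow arrays with the treatment comparison, so the 2 sets of calls are not separate evidence. Without PE outflow arrays 2, 4 and 5 all 7 were still called, Smad7 with the largest adjusted p (0.76 log2 units, adjusted p = 0.0127, limma). The smallest difference was then that of Tgfbr1 (0.66). Calls over all probe sets in either direction fell from 8924 to 5320 without these arrays. Ltbp2 was higher in the outflow sample of all 5 rats, by 2.83 to 3.81 log2 units (mean 3.13 ± 0.39 SD). Tgfb3 was higher in 5 of 5 by 1.33 to 2.21 (mean 1.75 ± 0.35 SD).

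Ltbp1 was also higher in 5 of 5 PE rats, but its range was wide, from 0.27 in rat 2 to 2.22 in rat 5 (mean 1.44 ± 0.72 SD). Tgfb2 1387172_a_at was higher in the outflow sample by 1.14 ± 0.23 SD, Tgfbi by 0.88 ± 0.22 SD and Tgfbr1 by 0.80 ± 0.53 SD, each in 5 of 5 rats. Rat 2 again gave the smallest Tgfbr1 difference, 0.11.

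Smad7 was higher in the outflow sample of 4 of 5 PE rats and lower by 0.16 in rat 2 (mean 0.59 ± 0.49 SD). Its call (adjusted p = 0.0363, limma) was lost without any 1 of PE apex arrays 1, 2 and 5 or PE outflow arrays 1, 3, 4 and 5, with values from 0.48 to 0.61. Tgfb1 showed no common direction, with 2 of 5 rats higher in the outflow sample (mean 0.06 ± 0.30 SD).

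**Figure D3:**
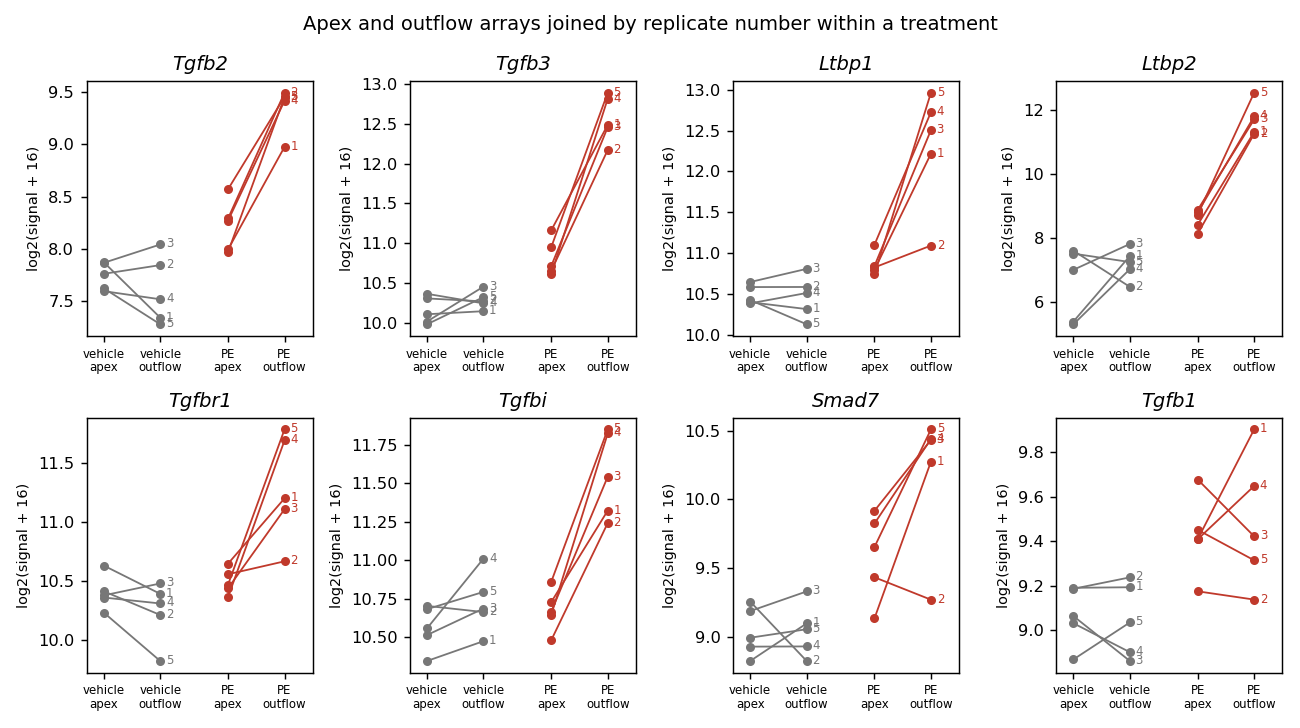
Log2 of signal plus 16 in the apex and outflow samples of each replicate number, joined within a treatment (grey vehicle, red PE; small digits are the replicate numbers). All 5 PE lines climb for Tgfb2, Tgfb3, Ltbp1, Ltbp2, Tgfbr1 and Tgfbi, with rat 2 flattest for Ltbp1 and Tgfbr1, and 4 of 5 climb for Smad7.

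Beyond the members, 41 other genes of the pathway were listed, and 37 had a probe set. In the outflow tract 28 of 37 were higher in PE rats, 1 was lower and 8 were not called, with a median log2 fold change of 0.93 against 0.10 over all genes. For comparison, 44.3% of the 14217 genes were called, 26.3% as higher and 18% as lower. In the apex 0 of 37 were called by limma, against 0.0211% of all genes, and the median was 0.20.

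Among proteins of latency and activation, 9 of 11 rose, led by Fbn1 (fibrillin-1, to which latent complexes attach) at 2.17 ± 0.18 and Ltbp3, another latent TGF-beta binding protein, at 2.14 ± 0.18 (adjusted p = 9.31e-08 and 1.04e-07, limma). Furin, a protease that cleaves the ligand precursor, was at -0.09 and the integrin subunit Itgb6 at -0.88, neither called. Of 5 co-receptors and receptor partners, 3 rose and 1 fell. Endoglin (Eng) rose by 1.11 ± 0.14 and the type I receptor Acvrl1 (ALK1), both best known from endothelium, by 1.09 ± 0.11 (adjusted p = 5.28e-06 and 7.95e-07). Strap, which binds the receptors and inhibits the signal, fell by 0.73 ± 0.11 on the log2 scale (adjusted p = 3.08e-05, limma).

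Of 12 Smads and regulators, 8 rose. The largest rises were those of Pmepa1, a feedback inhibitor that binds Smad2 and Smad3, at 2.10 ± 0.17 and Skil (SnoN), a co-repressor of Smads, at 1.14 ± 0.18 (adjusted p = 8.59e-08 and 5.35e-05, limma). The signal-carrying Smad2 and Smad3 themselves gave 0.27 and 0.28 and were not called, and the same held for Smad9 (0.25) and the ubiquitin ligase Smurf1 (-0.15).

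Of 9 known target genes, 8 rose, led by Ccn2 (connective tissue growth factor) at 3.17 ± 0.25 and Postn (periostin, a matricellular protein of activated fibroblasts) at 2.81 ± 0.46 (adjusted p = 6.84e-08 and 7.39e-05, limma). Junb was at -0.02. The target genes Acta2 and Tagln also stand in the smooth muscle marker list, so these counts are not separate.

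The difference of the PE effects, outflow minus apex, was called above 0 for 24 of the 37 genes and below 0 for 1, against 24.3% of all genes in either direction, 14.1% above and 10.2% below 0. The 1 gene was Strap, which fell further in the outflow tract (difference -0.65 ± 0.15, adjusted p = 0.00697, limma). By list those above 0 were 7 of 11 latency proteins, 2 of 5 co-receptors, 7 of 12 Smads and regulators and 8 of 9 target genes. Without PE outflow arrays 2, 4 and 5 the number above 0 was 15. Over all 31042 probe sets, calls of the difference in either direction likewise fell from 5567 to 3646. Between the regions of PE rats 29 of the 37 were higher in the outflow tract and 1 was lower, against 37.8% of all genes in either direction, 22.3% as higher and 15.5% as lower. Smads and regulators made up 10 of these 29, and 5 of 12 were higher without PE outflow arrays 2, 4 and 5. Leaving these arrays out also lowered the calls over all 31042 probe sets, from 8924 to 5320 in either direction. The other lists then had 8 of 11 latency proteins, 2 of 5 co-receptors and 8 of 9 target genes higher. In the comparison with vehicle outflow 25 were called higher without these arrays, where calls over all probe sets fell from 10720 to 7307.

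**Figure D4:**
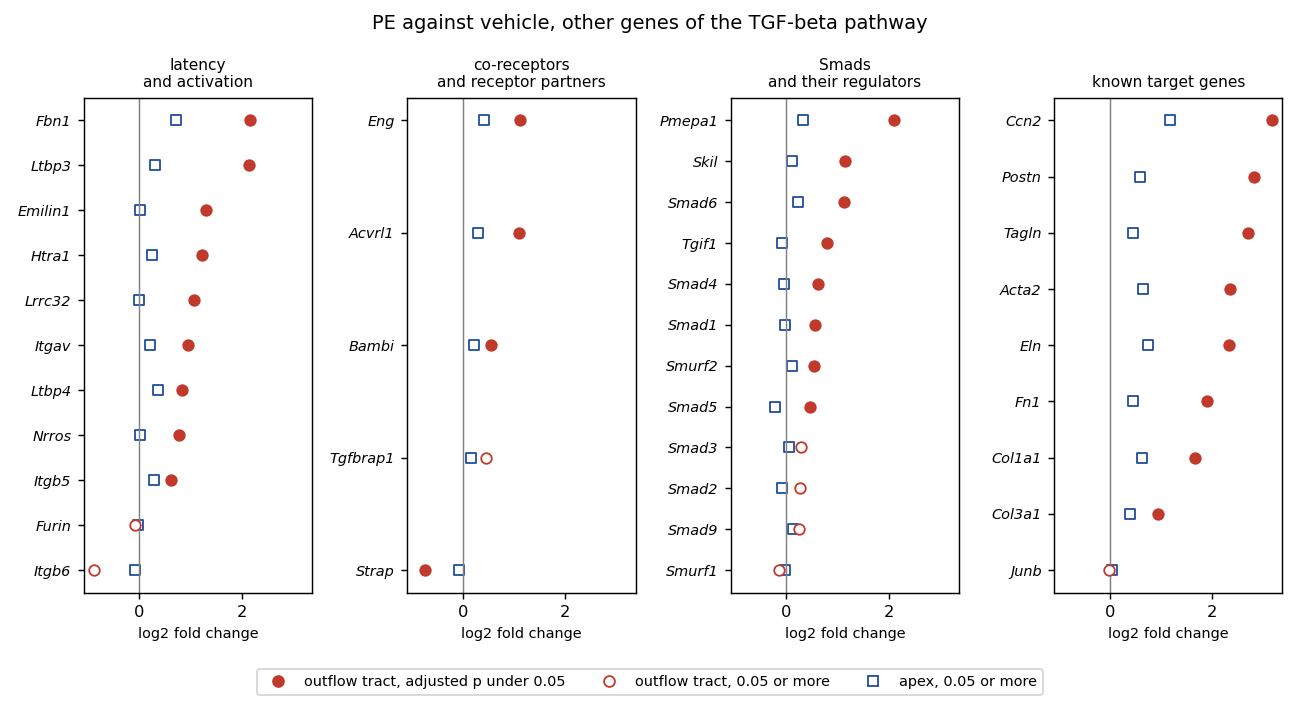
Log2 fold change of signal plus 16, PE over vehicle, of the 37 other pathway genes in 4 panels; circles are the outflow tract (filled where the adjusted p is under 0.05), squares the apex. Known target genes reach furthest, to 3.17 for Ccn2, Strap is the one filled circle left of 0, and no apex value was called.

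The genes whose log2 signal followed a member most closely over the 20 arrays were sought among 8129 genes with a mean log2 signal above 8, for the 8 members that themselves lay above it, which leaves out Tgfbr3. Ltbp2 and Tgfb2 1387172_a_at lay above it only through their PE arrays, with vehicle values of at most 7.81 and 8.04. The 8129 genes were chosen by the same mean over all arrays, so high PE values could bring a gene in. For Tgfb3 they were Igsf10, Mmp2 (a matrix metalloprotease) and Fbln1 (fibulin-1), with r of 0.989, 0.988 and 0.986. For Ltbp1 they were Reck, a membrane inhibitor of metalloproteases, Gpc6 and Serpine2, with r of 0.990, 0.989 and 0.986. Ltbp2 was followed most closely by Fstl1 (0.971), then by fibrillin-1 (0.969).

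For Tgfbi the closest gene was Ctsa (cathepsin A, 0.983), for Tgfbr1 it was Aga (0.976), another lysosomal enzyme, and for Tgfb2 it was Dync2li1 (0.963). Smad7 was nearest to Irf2bpl (0.956), and then to Mrc1 and Lyve1 (0.947 and 0.942), which mark resident macrophages among other cells. Of the 8, Tgfb1 had the loosest neighbours, led by Pdia3 at 0.861. These correlations describe 20 arrays that fall into 4 groups, with PE outflow apart from the rest, and share array, scaling and rat.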

How the data were processed

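The authors deposited 1 table of signal intensities for each probe set on each array, read as linear from the values themselves. The 2% trimmed mean was 500.2 on all 20 arrays, so arrays had been scaled to a common level. The software is not given in the sources used here. Of 31099 probe sets, 57 controls were left out of the tests. The array annotation gave 1 symbol for 20826 probe sets, several for 436 and none for 9780. Genes with several probe sets were represented by the brightest one.

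Signals plus 16 were put on the log2 scale. The 4 groups were fitted to all 20 arrays with limma 3.58.1 (R 4.3.3, lmFit and eBayes, two-sided), with Benjamini-Hochberg adjustment over 31042 probe sets, in 5 comparisons. The fit was tested on simulated data. The number of arrays limits the precision. Groups follow the titles, since 1 text field describes vehicle treatment for every sample.

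Within a treatment a replicate number was taken to mean 1 rat: over 12310 probe sets, deviations of same-numbered apex and outflow arrays correlated at 0.181 to 0.283 in PE and 0.181 to 0.276 in vehicle rats, and each array matched its own number best. Same-numbered vehicle and PE arrays, from different rats, correlated at -0.0753 to 0.154 in the apex and -0.283 to 0.103 in the outflow tract. Across regions these gave -0.226 to 0.221, which overlaps the same-rat range. Vehicle and PE numbers were not paired, except in an alternative setting that took the number as a fixed term. The labels call the samples biological replicates.

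The text names every member probe set, the 2 largest called rises and falls of each pathway list, and up to 3 genes most like each member. The Smads and other pathway genes without a call, Acta2, Tagln and the marker genes were named after their values were seen. The members and lists were chosen with earlier results of these data known. Alternatives comprised 20 omissions of 1 array and 13 other settings, of which leaving out both arrays of PE rat 2 was chosen after seeing the data.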

Additional observations from a re-analysis of the deposited data

Results flagged for a closer look

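In 3 of 56 groups of 5 arrays 1 array stood apart by Dixon's test on the log2 scale, where chance gives about 1 in 20. For Tgfb2 1387172_a_at, PE outflow array 1 was lowest, at 487 against 667 for the next array, a gap of 0.851 of the group's range. For Ltbp1, PE apex array 4 was highest, at 2189 against 1827, a gap of 0.720 of the range. For Smad7 1368896_at, PE outflow array 2 was lowest, at 602 against 1224, a gap of 0.811 of the range. That last array is the one with the GAPDH 3'/5' ratio of 6.12.

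The effect of PE differed between outflow tract and apex, by limma's test of the difference itself, in 6 of the 9 measured genes. Each was called by its brightest probe set. Over all 14217 genes 24.3% were called, 14.1% with a positive and 10.2% with a negative difference (outflow minus apex). On the log2 scale the outflow effect was larger by 2.50 for Ltbp2, 1.62 for Tgfb3, 1.45 for Ltbp1 and 1.28 for Tgfb2 1387172_a_at. It was larger by 0.96 for Tgfbr1 1376636_at and 0.72 for Tgfbi. The dimmer probe sets Tgfb2 1388011_a_at (0.16, adjusted p = 0.73, limma) and Tgfbr1 1369504_at (-0.35, adjusted p = 0.755, limma) were not called. The Tgfbi call was lost with median centring (0.60) and without PE outflow arrays 2, 4 and 5 (0.59).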

How the results depend on the processing

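Of 22 called member values, 18 stayed called in each of the 33 other settings that could be fitted, and 0 turned sign. The 4 that lost a call in some setting were Tgfb1 and Tgfb2 1388011_a_at in the outflow tract, the Tgfbi difference between regions and Smad7 between the regions of PE rats, the last with quantile normalization (0.54), median centring (0.50), only the compared groups fitted and 7 omissions. The cause was not tested. Median centring moved the median of all outflow fold changes from 0.05 to -0.08. With 1 array left out the called probe sets numbered 7 to 9 in the outflow comparison, 6 to 7 for the regional difference, 6 to 7 between PE regions, and 0 in the apex and between vehicle regions. In the apex 1 probe set was called with 64 added (Ltbp2), 1 with an intensity trend and 1 with array weights (both Tgfb3). The other pathway genes called higher in the apex numbered 1 without both arrays of PE rat 2, and for the difference 15 instead of 24 without PE outflow arrays 2, 4 and 5. Over all probe sets, calls of the difference in either direction then numbered 3646 instead of 5567. With 1 array left out, the other pathway genes called higher numbered 27 to 28 in the outflow comparison, 23 to 26 for the regional difference and 27 to 29 between PE regions.

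Of the uncalled values printed in the report for the treatment comparisons and the regional difference, these changed sign. Tgfbr3 1387484_at in the outflow tract was -0.058 with quantile normalization and -0.055 with median centring, and its difference between regions was 0.13 with the GAPDH ratio as a covariate. Tgfb1's difference was -0.028 with median centring, and Tgfbr1 1369504_at in the apex was 0.17 without PE rat 2. Leaving out 1 array gave -0.26 to 0.17 for Tgfbr1 1369504_at, -0.043 to 0.35 for Tgfbr3 1387484_at, -0.00090 to 0.28 for Smad7 1368897_at and -0.048 to 0.27 for Smad7 1368898_at in the apex. It gave -0.016 to 0.19 for Tgfbr3 1387484_at in the outflow tract, and for the difference -0.021 to 0.17 for Tgfb1, -0.0012 to 0.26 for Tgfb2 1388011_a_at and -0.27 to 0.12 for Tgfbr3 1387484_at. The Smad7 1368896_at difference gained a call with array weights (0.80), with the GAPDH ratio as a covariate (0.98) and without both arrays of PE rat 2 (0.77), but not without PE outflow arrays 2, 4 and 5 (0.75), and Smad7 1368897_at in the outflow tract with that covariate (0.74). Other uncalled values turned sign too, among them the PE regional values of Tgfb2 1388011_a_at (-0.04, and 0.18 without PE outflow arrays 2, 4 and 5) and Smad7 1368897_at (-0.08, and 0.37 with the covariate).

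The replicate block for the rat changed no member call, leaving 9 in the outflow comparison, 6 for the regional difference and 7 between PE regions. Fitting only the compared groups could not give the difference between regions, which needs all 4. Dim probe sets (means under 100) have wide intervals and limit what can be said of Tgfbr1 1369504_at and the 2 dim Smad7 probe sets.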
